A study of Mus musculus with 9 samples.

Results

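The genes described here are 10 noncollagenous matrix genes of cartilage, namely Acan, Hapln1, Matn1, Matn2, Matn3, Matn4, Comp, Cytl1, Snorc and Chad. They were chosen by name, and each matched a single Ensembl mouse gene among the 54532 genes of the deposited table. All 10 had a mean of at least 10 normalized counts over the libraries and were among the 17764 genes tested. Normalized counts are reads per gene scaled by a size factor per library.

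The RNA was from sorted knee cells of mouse embryos at E14.5, when cartilage templates and the joint between them are forming. Every embryo carried a Creb5 allele fused to a 3XHA tag, a P2A peptide and tdTomato, and a Sox9 allele with an ires-EGFP reporter, each beside a wild-type allele, so the compared populations share this genotype. Cells were sorted into those with EGFP alone (GFP-only, Sox9 reporter), those with tdTomato alone (RFP-only, Creb5 reporter) and those with both (double-positive). Each population has 3 libraries, 1 from each of the litters numbered 1, 2 and 5, each isolated on a date of its own. The deposited knee counts are labelled as leaving out other litters. How many embryos a litter gave is not stated.

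The cartilage matrix consists of collagen fibrils that hold a gel of aggrecan, a proteoglycan whose chondroitin sulfate chains bind water. Link protein, encoded by Hapln1, locks aggrecan onto hyaluronan. Matrilins, cartilage oligomeric matrix protein (COMP) and chondroadherin are adaptor proteins that connect collagen, proteoglycan and the cell surface. SOX9, with SOX5 and SOX6, is the known transcriptional driver of many of these genes in chondrocytes, while the interzone between skeletal elements has less of this matrix.

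The reporter genes set the sort, so their values check the labels and are no finding. Sox9 had 28910.0 ± 8025 normalized counts in GFP-only, 23473 ± 6622 in double-positive and 1618 ± 457 in RFP-only cells (mean ± SD, n = 3 libraries, as throughout). Creb5 had 203 ± 68.1, 3044 ± 333 and 2960 ± 832 in the same order. Recovered read totals were 25199258 to 47079305 per library, and none of 6 chondrocyte markers, which include Sox9 and Col2a1, was at 0 in all libraries of a population. The summed level of those markers was 654812 to 1332878 in GFP-only, 204784 to 546696 in double-positive and 5121 to 8824 in RFP-only libraries. In bulk libraries such as these, fewer cells of a type and less RNA per cell cannot be told apart.

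Of the 10 genes, 9 were high in GFP-only cells and had 0.128% to 1.10% of that mean in RFP-only cells. Their double-positive means lay between. Matn2 did not follow this pattern. The other 9 differed in how far double-positive cells fell short of GFP-only cells: on the ratio of means, Matn4 stood at 67.3% and Cytl1 at 52.7% of the GFP-only level, whereas Comp stood at 8.60% and Snorc at 4.93%. Over the 9 libraries the 36 pairs of genes without Matn2 had Pearson correlations of 0.90 to 0.997 on log2 values, and the 9 pairs with Matn2 had -0.516 to -0.245. These correlations are across libraries that fall into 3 sorted groups, so they are a description.

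**Figure D1:**
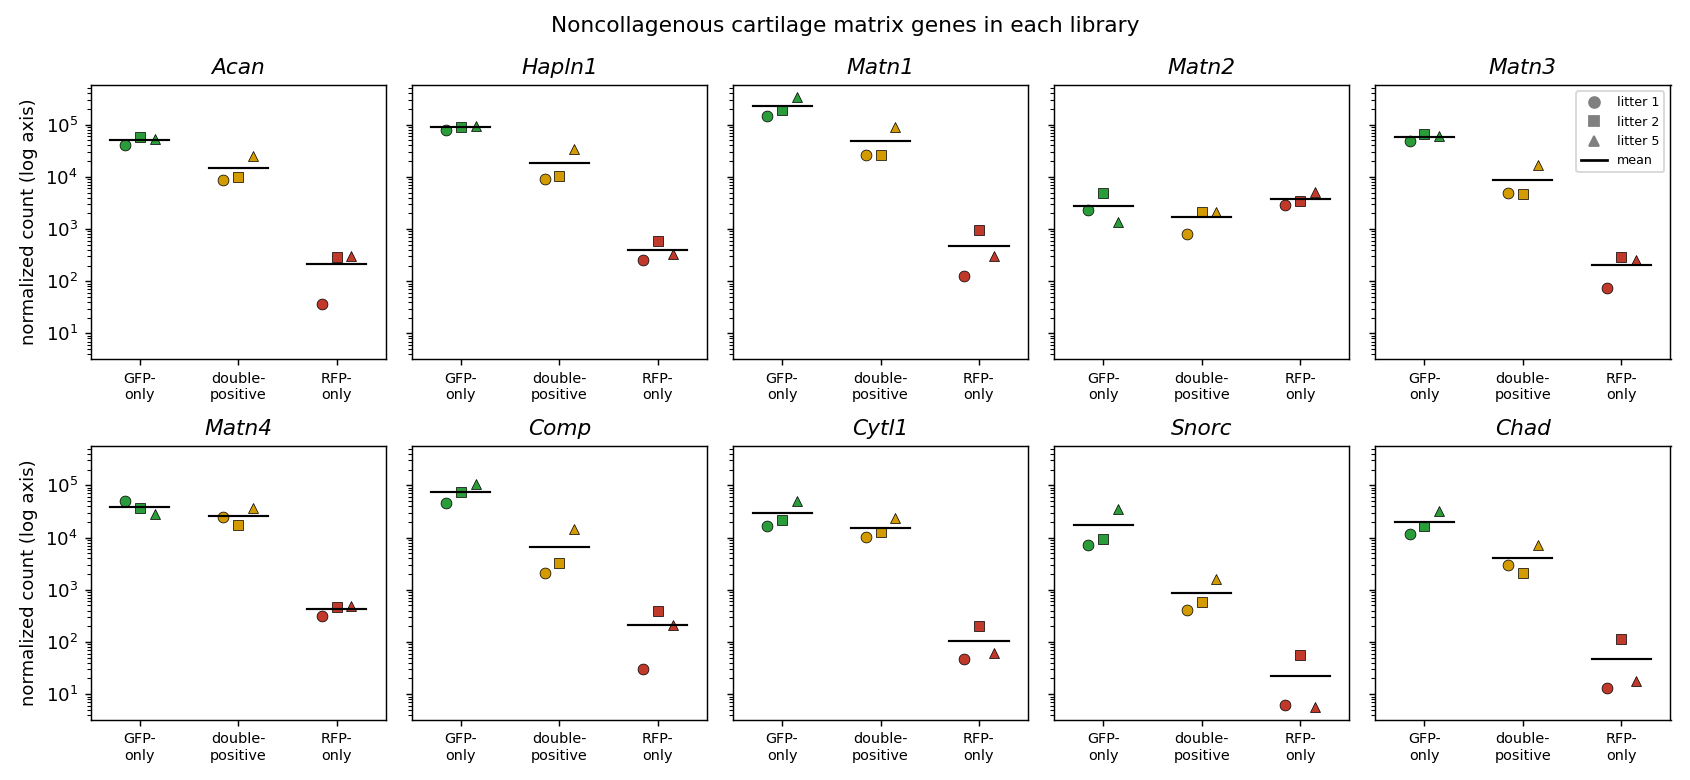
Normalized counts (log axis) of the 10 genes in each of the 9 libraries, by sorted population, with symbols for litters 1, 2 and 5 and a bar at the mean. In all panels but that of Matn2, every RFP-only library lies below every double-positive and GFP-only library, and litter 5 (triangle) is the highest double-positive library.

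The upstream sequences of 4 genes are shown, because Matn4 and Cytl1 had more than 50% of their GFP-only mean in double-positive cells while Matn3 (15.1%) and Chad (19.9%) had less. RefSeq (build GRCm38.p6) had an entry for 7 of the 10 genes, with 2 start sites for Matn4. Matn2, Comp and Snorc were not matched. Each run is the 250 bases before an annotated start, 5′ to 3′ on the gene's strand. Capitals mark matches to any of the words searched on both strands. These were the SOX core words ACAAAG, then ACAATG, then TCAAAG and lastly TCAATG. The cyclic AMP response element was searched as TGACGTCA, the AP-1 site as TGANTCA and the TATA box as TATAAA. No matches overlapped.
Matn4 (chr2:164405161-164405410, minus strand): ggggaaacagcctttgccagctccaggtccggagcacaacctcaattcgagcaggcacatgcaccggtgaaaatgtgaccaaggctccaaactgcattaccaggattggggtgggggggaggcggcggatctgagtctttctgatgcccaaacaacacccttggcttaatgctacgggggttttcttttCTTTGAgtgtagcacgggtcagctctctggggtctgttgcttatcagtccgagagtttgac
Cytl1 (chr5:37735269-37735518, plus strand): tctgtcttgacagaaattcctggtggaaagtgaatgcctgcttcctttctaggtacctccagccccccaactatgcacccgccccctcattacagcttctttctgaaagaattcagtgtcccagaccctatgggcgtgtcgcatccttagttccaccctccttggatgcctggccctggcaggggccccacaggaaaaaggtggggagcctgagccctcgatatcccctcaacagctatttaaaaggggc
Matn3 (chr12:8947679-8947928, plus strand): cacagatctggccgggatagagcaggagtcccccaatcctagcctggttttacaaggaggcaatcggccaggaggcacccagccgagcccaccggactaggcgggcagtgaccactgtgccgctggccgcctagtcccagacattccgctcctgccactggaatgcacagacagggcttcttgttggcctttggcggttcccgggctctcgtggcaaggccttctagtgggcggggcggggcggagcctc
Chad (chr11:94564797-94565046, plus strand): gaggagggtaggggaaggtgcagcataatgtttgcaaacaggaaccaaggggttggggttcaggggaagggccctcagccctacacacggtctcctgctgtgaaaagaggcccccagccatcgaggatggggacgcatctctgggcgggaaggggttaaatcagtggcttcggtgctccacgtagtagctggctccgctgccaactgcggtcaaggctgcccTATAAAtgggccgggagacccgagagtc
The SOX words occurred in 1 of the 8 windows, as CTTTGA from 61 to 56 bases before the Matn4 start farther upstream, against 39.4% of 32851 promoter windows of the same length. The TATA word occurred in the Chad window, 28 to 23 bases before the start, against 12.4% of all windows. Neither the cyclic AMP response element (1.55% of all windows) nor the AP-1 word (6.75%) occurred in the 8 windows. A match is a description of letters, and its absence speaks only for these 250 bases.

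The comparison of double-positive with GFP-only cells asks how matrix genes differ among Sox9-reporter cells by the presence of the Creb5 reporter. Of the 10 genes, 5 fell in double-positive cells (Hapln1, Matn1, Matn3, Comp and Snorc), none rose and 5 did not pass, against 3.02% of all tested genes called lower and 5.27% called higher (limma, adjusted p under 0.05). Their median log2 fold change was -2.40, beside 0.04 over all tested genes. Every GFP-only library lay above every double-positive library for 7 of the 10, against 13.8% of tested genes, and the exceptions were Matn2, Matn4 and Cytl1. The count of 5 became 2 without the double-positive library of litter 1, 2 when that of litter 2 was left out, and 3 when litter 5 was left out of GFP-only cells. Markers of other cells moved with this comparison. The summed level of 6 prehypertrophic chondrocyte markers spanned 74879 to 135790 normalized counts in GFP-only libraries but 6229 to 14616 in double-positive ones, and 6 of 6 fell. That of 6 joint interzone markers was 2033 to 2897 and 15118 to 32466, and 4 of 6 rose. For 6 tendon markers it was 5497 to 11755 and 18744 to 28987, and 5 of 6 rose. The sum of 6 blood and immune markers was 65.3 to 347 and 1348 to 7622, and 5 of 6 rose. No marker of these lists was at 0 in all libraries of a population, and their part in the differences of the 10 genes was not tested.

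RFP-only cells were compared with GFP-only cells as the populations with either reporter alone. Here 9 of 10 genes fell, against 8.48% of all tested genes called lower, and Matn2 did not pass. The median log2 fold change was -8.37, beside 0.05 over all tested genes. This count was 9 when any 1 library was left out. Other cells' markers also moved: 7 of 7 skeletal muscle, 5 of 6 pericyte, 5 of 6 tendon and 4 of 6 endothelial markers rose in RFP-only cells. Endothelial markers summed to 364 to 973 normalized counts in GFP-only and 3480 to 4315 in RFP-only libraries. Pericyte markers summed to 14291 to 17563 and 7857 to 10767, lower in RFP-only libraries although 5 of 6 rose. None of these markers was at 0 in all libraries of a population, and their part in the falls of the 9 genes was not tested. All GFP-only libraries were above all RFP-only libraries for the same 9 genes, against 18.5% of tested genes.

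The comparison of double-positive with RFP-only cells asks the same among Creb5-reporter cells by the Sox9 reporter. Here 9 of 10 genes were higher in double-positive cells, against 1.8% of all tested genes called higher, with a median log2 fold change of 5.80 beside -0.01 over all tested genes. All double-positive libraries lay above all RFP-only libraries for 9 genes, against 11.2% of tested genes. For Matn2 all lay below, against 12.6%. Marker lists moved here too. Of the chondrocyte markers, which include the sort gene Sox9, 6 of 6 were higher in double-positive cells, as were 3 of 6 joint interzone markers. In contrast 6 of 7 skeletal muscle markers were lower, and tendon markers were mixed (1 higher and 2 lower of 6). The part of these markers in the differences of the 9 genes was not tested. The 3 comparisons share libraries, so their values are set side by side below and are not independent of each other.

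**Figure D2:**
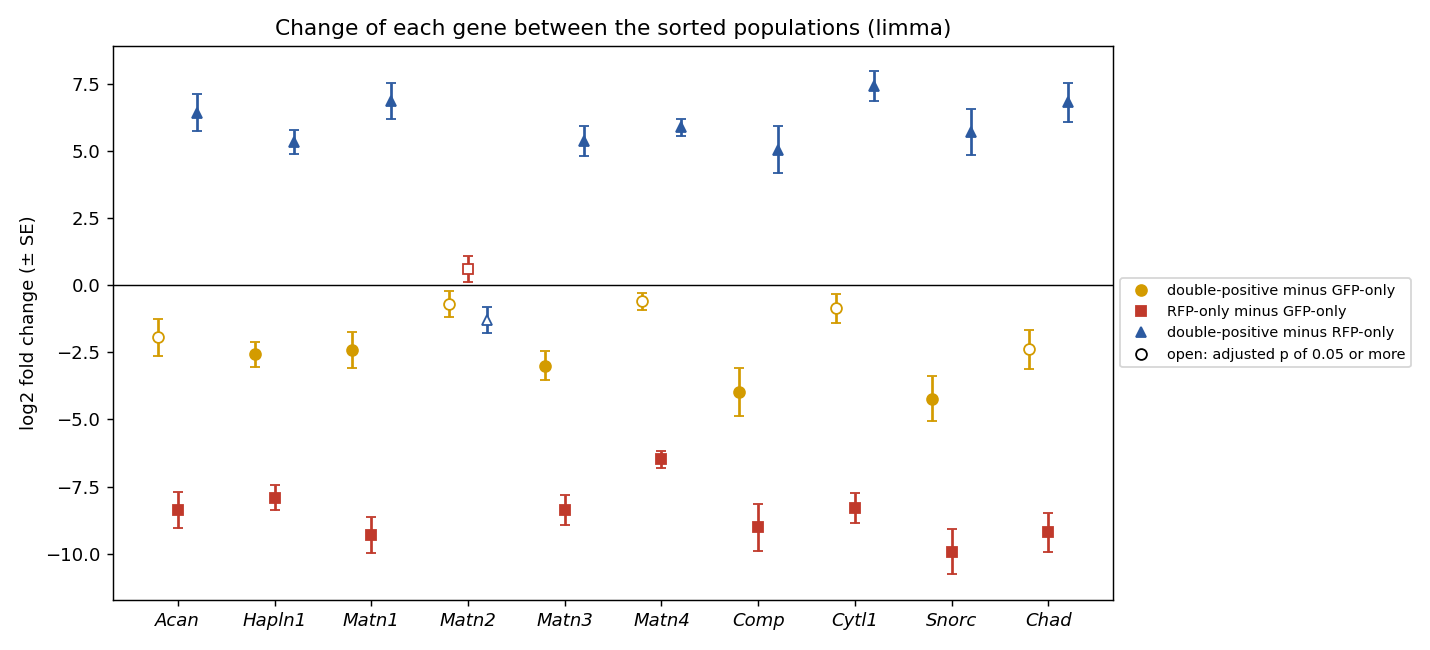
Log2 fold change (± SE, limma, 9 libraries) of each gene in the 3 comparisons between sorted populations, with open symbols for an adjusted p of 0.05 or more. For 9 genes the RFP-only minus GFP-only changes lie between -9.93 and -6.49, while the double-positive minus GFP-only changes spread from -4.22 to -0.60.

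Acan, the aggrecan core protein gene (ENSMUSG00000030607, plus strand of chromosome 7, 79053483 to 79115099, GRCm38), had 39917, 58060 and 54128 normalized counts in GFP-only cells of litters 1, 2 and 5. It had 8624, 10058 and 25529 in double-positive cells, and 37.3, 292 and 302 in RFP-only cells. The groups did not overlap, with litter 5 high among double-positive and litter 1 low among RFP-only libraries. From GFP-only to RFP-only cells Acan fell (log2 fold change -8.38 ± 0.69 SE, adjusted p = 1.84e-05), and its double-positive level exceeded the RFP-only level (6.44 ± 0.69, adjusted p = 0.000571).

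The Acan difference of double-positive from GFP-only cells, -1.94 ± 0.69, did not pass (adjusted p = 0.108), although it had 1 sign in all 3 litters. All 9 libraries share 1 estimate of the spread, and the RFP-only values of Acan span 37.3 to 302. Without the RFP-only library of litter 1 the Acan difference passed at the same size (adjusted p = 0.0151). It also passed in a fit of these 2 populations (adjusted p = 0.0351), with litter as a fixed replicate block (adjusted p = 0.0457, or 0.101 as a random block) and by DESeq2 (adjusted p = 0.0226), over a range of 0.0151 to 0.358 in 27 alternatives.

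Hapln1, the link protein gene (ENSMUSG00000021613, plus strand of chromosome 13, 89539796 to 89611652), had the narrowest GFP-only spread for its level, with 79746, 91790 and 94808 normalized counts in litters 1, 2 and 5. Double-positive cells had 9259, 10158 and 34682, and RFP-only cells 250, 592 and 329. Within litters the double-positive level was 11.6%, 11.1% and 36.6% of the GFP-only level. Hapln1 fell in double-positive cells (-2.58 ± 0.46, adjusted p = 0.00711) and in RFP-only cells (-7.92 ± 0.46, adjusted p = 4.96e-06). Its fall in double-positive cells was lost without litter 1 (adjusted p = 0.078) or litter 2 (adjusted p = 0.096), over a range of 5.45e-05 to 0.096.

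The cartilage matrilins Matn1 and Matn3 encode von Willebrand factor A domain proteins that bridge collagen fibrils and aggrecan. Matn1 (ENSMUSG00000040533, plus strand of chromosome 4, 130944385 to 130955475) had 145491, 194642 and 332069 normalized counts in GFP-only cells, against 26048, 26105 and 90933 in double-positive and 128, 963 and 308 in RFP-only cells. Matn3 (ENSMUSG00000020583, plus strand of chromosome 12, 8947929 to 8972028) had 48527, 67037 and 59588, then 4920, 4596 and 16976, then 73.9, 287 and 251. In both genes the groups did not overlap, and litter 5 was more than 3 times as high as the other double-positive libraries.

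Matn3 fell in double-positive cells (-2.99 ± 0.55, adjusted p = 0.00857), to 10.1%, 6.86% and 28.5% of the GFP-only level within litters 1, 2 and 5. That call was lost without litter 2 (adjusted p = 0.121), over a range of 1.36e-05 to 0.121. Matn1 fell by less (-2.42 ± 0.67) and stood at the edge of the threshold (adjusted p = 0.0493). Its call was lost in 17 of 27 alternatives, with adjusted p of 0.0251 to 0.173 over all of them, including edgeR (0.0923) and DESeq2 (0.0652) on recovered reads. In RFP-only cells Matn1 changed by -9.29 and Matn3 by -8.36 on the log2 scale (adjusted p = 9.81e-06 and 6.36e-06).

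Matn4, a matrilin gene that is also expressed outside cartilage (ENSMUSG00000016995, minus strand of chromosome 2, 164389393 to 164405160), had 51174, 37256 and 28624 normalized counts in GFP-only cells. Double-positive cells had 25005, 17116 and 36713. These ranges overlapped, and the double-positive level was 48.9%, 45.9% and 128% of the GFP-only level within litters 1, 2 and 5. RFP-only cells had 317, 478 and 491. The double-positive minus GFP-only difference of -0.60 ± 0.31 did not pass (adjusted p = 0.262), while the double-positive level of Matn4 exceeded the RFP-only level (5.89 ± 0.31, adjusted p = 1.42e-05). Matn4 shares 149 exonic bases with Rbpjl on the opposite strand, and whether reads were counted by strand is not stated. Rbpjl had 265 ± 30.2, 116 ± 56.1 and 7.29 ± 5.22 normalized counts in GFP-only, double-positive and RFP-only cells.

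Matn2, the matrilin gene with the widest known expression in connective tissue (ENSMUSG00000022324, plus strand of chromosome 15, 34306677 to 34436273), had 2265, 4802 and 1349 normalized counts in GFP-only cells. It had 795, 2133 and 2091 in double-positive and 2843, 3508 and 5096 in RFP-only cells. The GFP-only range overlapped both others, and every RFP-only library was above every double-positive library. No comparison passed: the changes were -0.68 ± 0.48 from GFP-only to double-positive cells (adjusted p = 0.403), 0.60 ± 0.48 from GFP-only to RFP-only (adjusted p = 0.404) and -1.28 ± 0.48 from RFP-only to double-positive (adjusted p = 0.237). Within litters the RFP-only level was 126%, 73.1% and 378% of the GFP-only level, and without litter 5 the RFP-only minus GFP-only difference turned to -0.062 (adjusted p = 0.955, range 0.112 to 0.955).

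Summed levels of tendon and skeletal muscle markers also differed between some of these populations. Tendon sums were lower in every GFP-only library than in any other library, and muscle sums were highest in the RFP-only libraries. The ranges otherwise overlapped, and those of Schwann cell markers overlapped between all populations. The summed level of 6 tendon markers was 5497 to 11755 in GFP-only, 18744 to 28987 in double-positive and 21338 to 26852 in RFP-only libraries. That of 7 skeletal muscle markers was 589 to 1469, 991 to 2825 and 7959 to 31436, and that of 6 Schwann cell markers 1416 to 4175, 1081 to 1948 and 1514 to 1995. None was at 0 in all libraries of a population, and their part in the Matn2 values was not tested.

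Comp, which encodes a thrombospondin-family protein of cartilage and tendon (ENSMUSG00000031849, plus strand of chromosome 8, 70373558 to 70382066), had 45381, 76060 and 107102 normalized counts in GFP-only cells. Double-positive cells had 2061, 3200 and 14390, and RFP-only cells 29.7, 400 and 213. The groups did not overlap. Comp fell in double-positive cells (-3.98 ± 0.88, adjusted p = 0.0198), to 4.54%, 4.21% and 13.4% of the GFP-only level within litters. Leaving out litter 5 from GFP-only cells ended that call (adjusted p = 0.0573), as did leaving out litter 1 (0.0775) or 2 (0.0848) from double-positive cells, over a range of 0.00316 to 0.143. The double-positive level of Comp exceeded the RFP-only level (5.05 ± 0.88, adjusted p = 0.0115), but with litter 5 left out of double-positive cells the difference of 4.22 did not pass (adjusted p = 0.05 after rounding, range 2.02e-05 to 0.0987).

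Chad, which encodes the leucine-rich repeat protein chondroadherin (ENSMUSG00000039084, plus strand of chromosome 11, 94565047 to 94569127), had 11705, 16422 and 32533 normalized counts in GFP-only cells, against 2969, 2064 and 7057 in double-positive and 12.9, 112 and 18.2 in RFP-only cells. Its groups did not overlap, yet the double-positive minus GFP-only difference of -2.39 ± 0.72 did not pass (adjusted p = 0.0649). It passed with litter 2 left out of RFP-only cells (0.0179), with a pseudocount of 5 (0.0446) and in a fit of these 2 populations (0.0343), over a range of 0.0179 to 0.215. In RFP-only cells Chad fell by 9.21 on the log2 scale (adjusted p = 1.42e-05). Its RFP-only values rest on 17, 99 and 13 recovered reads in litters 1, 2 and 5.

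Cytl1 encodes a small secreted protein made by chondrocytes (ENSMUSG00000062329, plus strand of chromosome 5, 37735519 to 37739820). It had 16923, 21502 and 49990 normalized counts in GFP-only cells, against 10180, 12529 and 23866 in double-positive and 47.2, 199 and 60.2 in RFP-only cells. Within litters the double-positive level was 60.2%, 58.3% and 47.7% of the GFP-only level, the smallest ratio of highest to lowest litter among the 10 genes. The ranges of these 2 populations overlapped and the difference of -0.86 ± 0.55 did not pass (adjusted p = 0.355). Against RFP-only cells Cytl1 had the largest rise of the 10 genes in double-positive cells (7.43 ± 0.55, adjusted p = 6.19e-05).

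Snorc encodes a small transmembrane chondroitin sulfate proteoglycan of cartilage (ENSMUSG00000026258, plus strand of chromosome 1, 87470271 to 87475482). It had 7191, 9498 and 35630 normalized counts in GFP-only cells, against 402, 583 and 1595 in double-positive and 6.09, 55.5 and 5.60 in RFP-only cells. The groups did not overlap, and the RFP-only values rest on 8, 49 and 4 recovered reads. Snorc had the largest fall in double-positive cells among the 10 genes (-4.22 ± 0.85, adjusted p = 0.0128), to 5.59%, 6.14% and 4.48% of the GFP-only level within litters. Leaving out litter 1 (adjusted p = 0.0538) or 2 (0.0579) from double-positive cells ended the call, over a range of 0.000955 to 0.0772. The double-positive level of Snorc exceeded the RFP-only level (5.71 ± 0.85, adjusted p = 0.00451), a call that was lost without litter 1 (0.0574) or litter 5 (0.0556), over a range of 8.38e-05 to 0.0574.

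**Figure D3:**
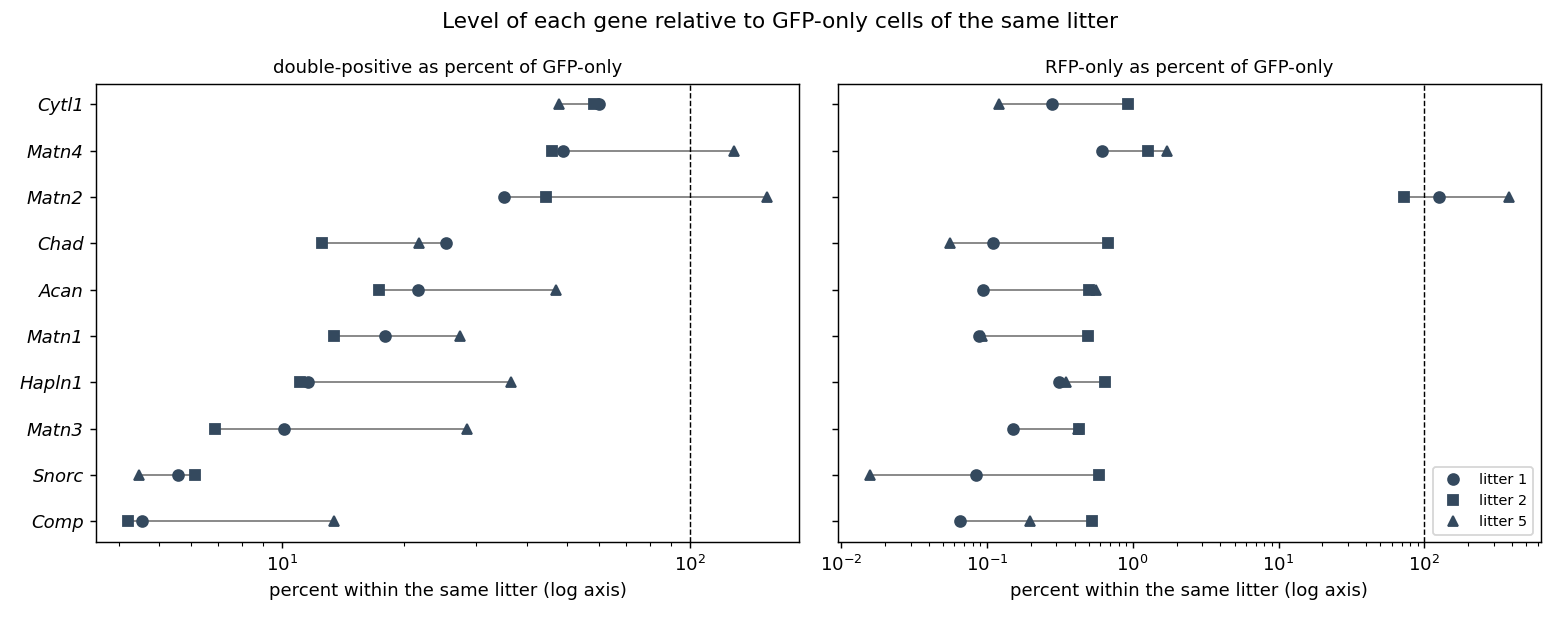
Level of each gene in double-positive (left) and RFP-only cells (right) as a percentage of the GFP-only level of the same litter (log axes), with grey lines from the lowest to the highest litter and a dashed line at equality. Comp and Snorc lie between 4.21% and 13.4% in double-positive cells and Cytl1 between 47.7% and 60.2%, while Matn2 alone lies on both sides of equality in RFP-only cells.

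Whether double-positive cells lay nearer the GFP-only or the RFP-only level was tested against the midpoint of both on the log2 scale. Matn4 (2.65 ± 0.27, adjusted p = 0.00229) and Cytl1 (3.29 ± 0.48, adjusted p = 0.00949) lay above it, against 1.01% of all tested genes called above. The other 8 did not pass, with values of 2.25 ± 0.59 for Acan, 2.23 ± 0.58 for Matn1 and 2.21 ± 0.62 for Chad. Hapln1 had 1.38 ± 0.40, Matn3 1.19 ± 0.48, Snorc 0.74 ± 0.74, Comp 0.54 ± 0.76 and Matn2 -0.98 ± 0.42. At an unadjusted p under 0.05 (limma), 7 of the 10 genes lay above the midpoint. The share of all tested genes at that threshold was not computed, and the 1.01% is for adjusted p. The count of 2 became 1 with litter 5 left out of double-positive cells, where Cytl1 had an adjusted p of 0.0559. It became 4 with litter 2 left out of RFP-only cells, where Matn1 (0.0487) and Chad (0.0293) also passed. Over all alternatives the adjusted p ranged from 2.00e-08 to 0.106 for Cytl1 and from 1.84e-16 to 0.0841 for Matn4.

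Whether the other genes changed as much as Acan between double-positive and GFP-only cells was tested on the log2 ratio of each gene to Acan in the same library. None of the 9 passed (limma, adjusted p under 0.05), against 11.9% of all tested genes called. At an unadjusted p under 0.05, for which no share of all tested genes was computed, there were 2. The median of the ratio's change was -0.48 for the 9 genes and 1.98 for all tested genes, since Acan itself is subtracted from each. Those 2 were Comp (-2.03 ± 1.03, adjusted p = 0.121) and Snorc (-2.28 ± 1.06, adjusted p = 0.105). With litter as a fixed replicate block both passed, at 0.0393 for Comp and 0.0285 for Snorc. Without the RFP-only library of litter 1, which had the lowest Acan value, 3 passed, namely Comp, Snorc and Matn4 (adjusted p = 0.00195, 0.0013 and 0.0307). These 2 fits called 7970 and 13521 of the 17763 tested genes, in each case a larger share than that of the 9 genes. Over the alternatives the adjusted p values of Comp, Snorc and Matn4 ranged from 6.73e-11 to 0.652, 2.08e-06 to 0.652 and 8.76e-05 to 0.664. Every ratio carries the spread of Acan itself in all 9 libraries, RFP-only ones included. The SE was thus nearly the same for the 9 genes, from 1.00 (Matn1) to 1.06 (Snorc). A ratio that did not pass therefore does not show a change equal to that of Acan. The p values of the ratios treat the spread shared through Acan as nearly known, although it rests on 9 libraries. They can thus be too low, and a ratio that passed is no firm sign of a change unlike that of Acan.

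Levels of different genes were compared as normalized counts per kb of the main annotated transcript, whose length was 478 bases for Snorc and 7355 for Acan. In GFP-only cells Matn1 was first at 111978 ± 48329 per kb and Matn2 last at 790 ± 504, and each neighbouring pair overlapped in range except Acan (6893 ± 1298) and Matn2. In double-positive cells Matn1 (23836 ± 18713), Cytl1 (15939 ± 7513) and Matn4 (11405 ± 4280) formed the top of the order and did not overlap with Hapln1 (3155 ± 2524), the next gene. Snorc was ninth in double-positive cells (1799 ± 1345). Its second place in GFP-only cells (36484 ± 33045) rested on litter 5: the 3 libraries had 15043, 19870 and 74540 per kb, and without litter 5 its mean of 17457 was in the sixth place. In RFP-only cells Matn2 was first at 1075 ± 326 per kb and did not overlap with Matn1 (233 ± 219), the next gene, and all further neighbours overlapped.

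**Figure D4:**
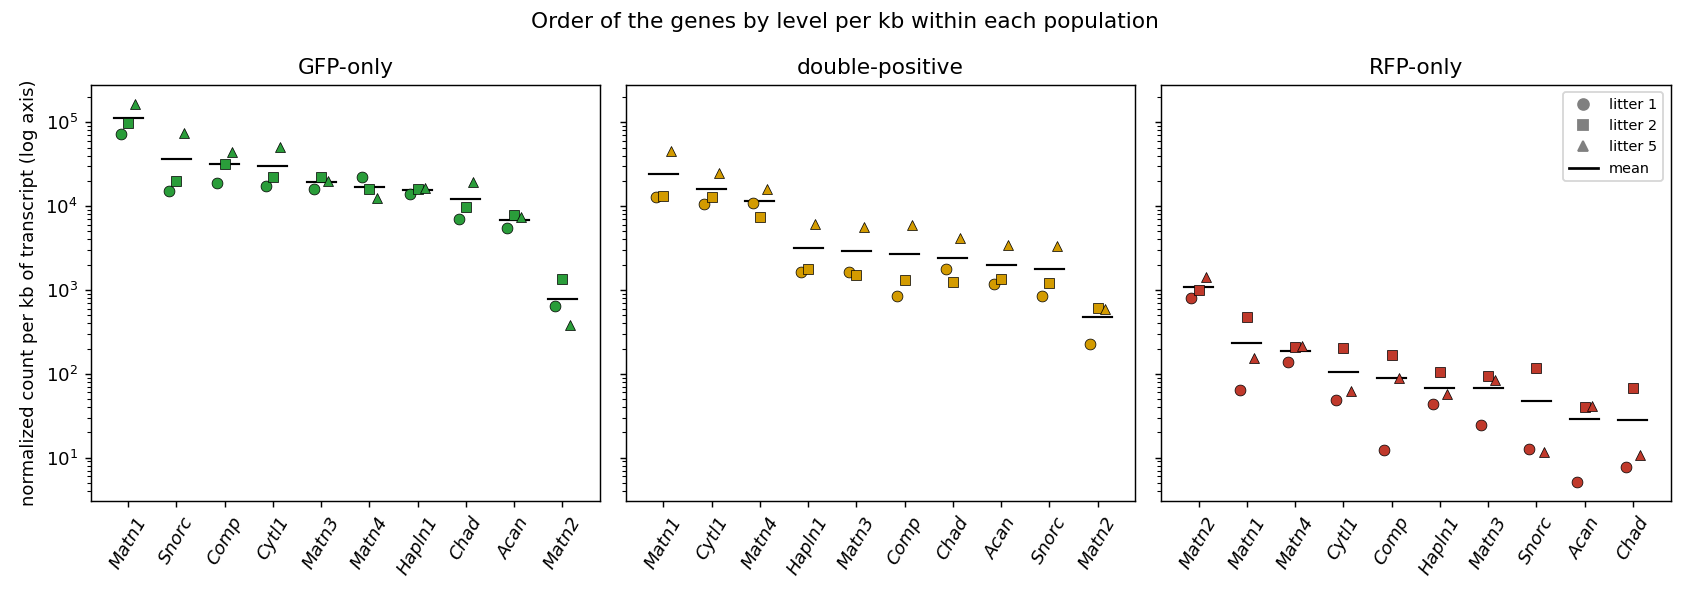
Normalized counts per kb of transcript (log axis) in each library, with genes ordered by the mean of each population (bar) and symbols for litters. Matn1, Cytl1 and Matn4 stand apart at the top in double-positive cells, and Matn2 moves from the last place to the first in RFP-only cells, where its mean was 1075 per kb.

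Within double-positive and RFP-only cells most of the 10 genes had their extreme in the same litter. The double-positive library of litter 5 was the highest of its population for 9 of the 10 genes, against 34.3% of all tested genes, and the RFP-only library of litter 1 was the lowest for 9, against 29.5%. In RFP-only cells 7 genes were highest in litter 2, against 37.6%. GFP-only cells were mixed: 6 genes were highest in litter 5, against 42.2%, and 8 were lowest in litter 1, against 32.4%, but Matn2 and Matn4 were lowest in litter 5, against 40.5%. Summed over the 10 genes, double-positive cells had 90262, 88543 and 253831 normalized counts in litters 1, 2 and 5. Chondrocyte markers in the same libraries summed to 229910, 204784 and 546696, and 6 prehypertrophic markers to 6229, 8123 and 14616. The 6 interzone markers went the other way, at 32466, 18807 and 15118, and 6 blood and immune markers stood at 1348, 3141 and 7622. None of these markers was at 0 in all 3 libraries, and their part in the litter differences was not tested.

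In RFP-only cells the 9 genes other than Matn2 had 0.128% (Snorc) to 1.10% (Matn4) of their GFP-only mean. As a share of the double-positive mean the RFP-only level was 0.659% for Cytl1 and 3.27% for Comp, with the other 7 between. For Comp that share was 1.44%, 12.5% and 1.48% within litters 1, 2 and 5.

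Other genes of the cartilage matrix were taken from a fixed list of 19. From GFP-only to double-positive cells 9 fell, 1 rose and 9 did not pass (median log2 fold change -1.61), while 8.29% of all tested genes were called in either direction. Pcolce2, which enhances procollagen processing (-4.05 ± 0.45), Col11a1 (-1.89 ± 0.33) and the leucine-rich proteoglycan gene Prelp (-2.27 ± 0.43) fell. Cilp, the cartilage intermediate layer protein gene, rose from 4.08 ± 7.07 to 117 ± 41.8 normalized counts (5.59 ± 0.88, adjusted p = 0.00392), a fold that depends on the pseudocount at so low a level. In RFP-only against GFP-only cells 16 fell, 1 rose and 2 did not pass (median -6.29, with 20.3% of all tested genes called). In double-positive against RFP-only cells 16 were higher and 3 did not pass (median 4.36, with 2.85% called), including Col9a1 (6.18 ± 0.45) and Mia (6.33 ± 0.49). Of the SOX trio, Sox9 was fixed by the sort. Its partners Sox5 (-5.17 ± 0.31) and Sox6 (-5.70 ± 0.68) fell from GFP-only to RFP-only cells, and neither passed from GFP-only to double-positive cells (-0.54 ± 0.31 and -0.07 ± 0.68).

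Relatives of the same protein families changed in both directions. Of 14 listed, 12 were tested, and from GFP-only to double-positive cells 3 rose, 1 fell and 8 did not pass (median 0.41), while 5.27% of all tested genes were called higher and 3.02% lower. Vcan, which encodes versican, the aggrecan relative of loose mesenchyme, rose from 1753 ± 566 to 7991 ± 2230 normalized counts (2.21 ± 0.32, adjusted p = 0.00256), the opposite direction to the fitted Acan difference. The Comp relative Thbs4, a thrombospondin gene that is also on the tendon marker list, went up from 240.4 ± 83.3 to 3137 ± 1114 normalized counts (3.69 ± 0.30, adjusted p = 0.000127). Hapln3, a link protein relative, fell from 432 ± 91.4 to 60.9 ± 35.0 (-2.93 ± 0.50, adjusted p = 0.00593). In RFP-only against GFP-only cells 3 rose and 3 fell, with 20.3% of all tested genes called, among them the chondroadherin relative Chadl (-3.75 ± 0.28, adjusted p = 1.12e-05). In double-positive against RFP-only cells, with 2.85% of all tested genes called, 1 rose, which was Chadl (3.11 ± 0.28), and 1 fell, which was Thbs4 (-1.42 ± 0.30).

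Genes for building, sulfating, binding and cutting aggrecan were counted over a list of 28. From GFP-only to double-positive cells 6 fell, 2 rose and 20 did not pass (median -0.29), while 3.02% of all tested genes were called lower and 5.27% higher. Those that fell included the chondroitin sulfotransferase genes Chst12 (-1.38 ± 0.24) and Chst11 (-1.97 ± 0.38), the nucleotide sugar transporter gene Slc35d1 (-1.73 ± 0.36) and the chain-starting enzyme gene Csgalnact1 (-1.05 ± 0.24). The 2 that rose were the metalloproteinase genes Adamts15 (3.19 ± 0.44) and Adamts5 (2.50 ± 0.53), both of a family that cleaves aggrecan and versican. In RFP-only against GFP-only cells 11 fell, among them Chst11 (-4.96 ± 0.38) and the sulfate donor enzyme gene Papss2 (-4.82 ± 0.30), and 6 rose, with 20.3% of all tested genes called. In double-positive against RFP-only cells 5 were higher and 23 did not pass, with 2.85% of all tested genes called, Papss2 at 3.84 ± 0.30 and the xylosyltransferase gene Xylt1 at 2.53 ± 0.33.

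For each gene the 3 tested genes with the most similar pattern were found by Pearson correlation of log2 values over the 9 libraries. The nearest to Acan were the cartilage collagen genes Col9a3 (0.995) and Col11a2 (0.992), and Spaar (0.992). Hapln1 and Matn3 were near each other (0.995), as were Matn1 and Chad (0.997), and Ncmap followed both of the latter (0.997 and 0.997). Matn4 was nearest to Wwp2 (0.994), Sox5 (0.993) and Extl1 (0.993), and Cytl1 to Ninj2 (0.994), Myh14 (0.994) and Col15a1 (0.990). Epyc, which encodes the proteoglycan epiphycan, was among the nearest to Hapln1 (0.994), Comp (0.988) and Snorc (0.989). Matn2 was nearest to Phex (0.972), Kdelc2 (0.944) and Vldlr (0.943).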

How the data were processed

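Per the labels' protocols, libraries of polyadenylated RNA came from a Nextera XT preparation. The deposited signal is a normalized count per Ensembl gene and library, and per the submitters' processing notes DESeq2, Salmon, STAR, FastQC and build mm10 were used, in roles not named. Gene models and strand setting are not given in the sources used here. Dividing by the value of 1 read gave whole reads for 100% of values (tolerance 0.001). Symbols and coordinates came from GENCODE M21 (GRCm38), which matched 54495 of 54532 identifiers, and promoters from RefSeq.

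Two-sided tests used limma 3.58.1 (R 4.3.3, variance trended on the mean) and log2(normalized count + 1), which understates folds of low genes. Genes entered at a mean of 10 or more. Benjamini-Hochberg adjustment ran over all 17764 genes, with calls under 0.05. Alternatives changed pseudocount, filter, scaling, weights, variance prior and samples, blocked by litter, or ran edgeR 4.0.16 on recovered reads (1236, 3191 and 411 genes called in the 3 pairwise comparisons, where limma called 1472, 3601 and 506) and DESeq2 1.42.0 (2780, 4696 and 1152). The fit was tested on simulated data that had the same spread setting for every gene and no litter effect. That test does not speak for the differences between litters seen here. The order of levels without single libraries was added after seeing the data. No 2 libraries of a population agreed within counting noise (lowest chi-square 42.5 per degree of freedom). The highest values, 339 and 309, were those of the GFP-only library of litter 5 against litters 1 and 2. That library also had the largest normalized total (49583875).

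The text names the 10 genes, the sort genes, the 3 most similar genes of each (mean of at least 100, no predicted genes), and from each list up to 4 passing genes in the direction with more calls and up to 2 in the opposite one. Members and lists were chosen with earlier results of these data known. The labels give the numbers as litters, which pairs libraries across populations. The main fit did not use this pairing. The median correlation of deviations from population means was 0.103 for 9 same-litter pairs (-0.0353 to 0.149). For 18 pairs from different litters it was -0.0409 (-0.146 to 0.0915). Reporter sequences were not analysed here.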

Additional observations from a re-analysis of the deposited data

How the results depend on the processing

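Of 1295 values for single genes over 27 alternatives, 1220 kept direction and side of the threshold, 40 lost a call, 32 gained one and 3 reversed. The 3 were the Matn2 difference of RFP-only from GFP-only cells without litter 5 (-0.062), and the Comp difference from the midpoint with litter 5 left out of double-positive cells (-0.29) or litter 1 out of RFP-only cells (-0.00653). Over single libraries left out, that Comp difference ranged from -0.29 to 1.11. None of these 3 had passed the threshold. The 5 genes lower in double-positive than GFP-only cells were 7 in a fit of these populations, 6 with a pseudocount of 5 or litter as a fixed replicate block, 3 with no mean-variance trend, 2 without litter 1 and 0 without litter 2 (limma, 6 at an unadjusted p under 0.05), and 2 to 6 when single libraries were left out. Genes lower in RFP-only cells numbered 9 in each such fit, and those higher in double-positive than RFP-only cells 8 to 9. The latter were 8 without litter 1 or litter 2 and 7 without litter 5, where Comp (adjusted p = 0.0987) and Snorc (0.0556) did not pass. The 2 genes above the midpoint were 4 with array weights or DESeq2, 0 without litter 1 or litter 2 (limma, 7 at an unadjusted p under 0.05 in either), and 1 to 4 without single libraries. Changes unlike that of Acan numbered 7 with array weights, 2 in fits of the populations compared, 2 without litter 1, 2 with litter as a fixed or random replicate block, and 0 to 3 without single libraries. Of 17763 tested genes, 16708 were called with array weights, 12277 in the fit of the populations compared and 7494 without litter 1. The fixed and random replicate blocks called 7970 and 8448. Each of these is a larger share than that of the 9 genes in the same fit. Fits without a litter have fewer samples, and the causes of the other shifts were not tested. No share of all tested genes was computed at the unadjusted threshold. Over all tested genes, calls over the alternatives ranged from 229 to 2780 (1472 as reported) from GFP-only to double-positive cells, 1598 to 4968 (3601) from GFP-only to RFP-only, 112 to 1545 (506) from RFP-only to double-positive, 0 to 768 (227) against the midpoint and 64 to 16708 (2116) relative to Acan. Besides the calls of Acan and of the ratios of Comp and Snorc to Acan given above, the replicate block changed no call of the 10 genes. Quantile normalization moved the median of all genes by -0.15 and -0.17 for double-positive and RFP-only against GFP-only cells. The ratio to Acan was not run with edgeR or DESeq2. With 4 to 49 recovered reads, Snorc in RFP-only cells is limited by depth, as is Chad with 13 to 99. The lowest RFP-only library had 39 recovered reads for Comp, 43 for Cytl1 and 49 for Acan.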

Other observations

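The 10 genes and Col2a1, the main collagen gene of cartilage, did not keep 1 ratio in all GFP-only libraries. Summed over the 10 genes, GFP-only cells had 60.8, 53.7 and 175 normalized counts per 100 of Col2a1 in litters 1, 2 and 5. Col2a1 itself had 737693, 1074923 and 453528 normalized counts there, lowest in litter 5, where Matn1, Comp, Cytl1, Snorc, Chad and Hapln1 were highest. In double-positive cells the same ratio was 59.3, 61.7 and 64.3, and in RFP-only cells 141, 118 and 146. The difference between litters was not tested.

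The 10 genes held 1.19%, 1.45% and 1.60% of all normalized counts in GFP-only libraries of litters 1, 2 and 5. They held 0.268%, 0.262% and 0.721% in double-positive and 0.0113%, 0.0196% and 0.0201% in RFP-only libraries.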
